A study of Mus musculus with 15 samples.

Results

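The genes described here encode splicing factors and heterogeneous nuclear ribonucleoproteins (hnRNPs). They were taken by name: every gene of the table whose symbol begins with Srsf and a digit, with Hnrnp, Snrp, Sf3a or Sf3b, or with Prpf and a digit, which gave 63 of 11201 genes. They fell into 10 Srsf genes, 20 Hnrnp genes, 11 Snrp genes, 9 Sf3 genes and 13 Prpf genes. All 63 passed the filter on low values and all are annotated as protein coding.

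The cells were ESdM, microglia derived from mouse embryonic stem cells of the C57BL/6-ATCC line and used as a culture model of the resident macrophages of the brain. One set of 3 libraries came from cells given LPS+IFNg, a bacterial cell wall component (lipopolysaccharide, 500 ng/ml) with interferon gamma (20 ng/ml). Another 3 came from cells given IL4 (interleukin 4, 100 U/ml) and 3 from cells given TGFb (transforming growth factor beta, 50 ng/ml), each for 24 h, and 6 came from untreated cells. All groups shared the N2 medium and the same stem cell background, so no group holds microglia taken from a brain. The labels do not state whether replicate libraries were separate cultures. The p-values therefore speak only of the variation among these libraries, and part of that variation could be technical.

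Splicing removes introns from nuclear transcripts, and it is carried out by the spliceosome, a machine of small nuclear RNAs bound to proteins. Sm proteins form a ring around the small nuclear RNAs, the SF3A and SF3B complexes help the U2 particle hold the branch point of the intron, and PRPF proteins join or remodel the later particles. SR proteins (the Srsf genes) bind exons and generally promote their inclusion, while hnRNPs coat nascent transcripts and often favour skipping. Many SR protein and hnRNP genes limit their own messenger RNA by splicing in an exon that leads to nonsense-mediated decay.

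Values are normalized counts, that is, read counts divided by 1 factor per library, and fold changes are limma estimates on log2(value + 1). The libraries held 2682564 to 18676181 reads, with a median of 7589049, and no member was covered by fewer than 20 reads in any library. Of 14 microglia and myeloid markers 12 were in the table, and their summed count was 21509 to 28862 with LPS+IFNg, 24869 to 25380 with IL4, 29128 to 30688 with TGFb and 22240 to 23596 in untreated libraries. The sum covers unlike genes, and untreated means were only 2.60 for Cx3cr1, 7.62 for Tmem119 and 24.8 for Aif1. Tmem119 fell with LPS+IFNg (log2 fold change -1.59) and IL4 (-1.45) and rose with TGFb (3.37). Aif1 rose with LPS+IFNg (3.14), and Irf8 had 3255.5 ± 2883.2 there (mean and SD), against 608 ± 47.2 in untreated libraries. None of 8 pluripotent cell markers, 9 neuron markers or 7 fibroblast markers was in the table used here, and 3 of 8 astrocyte and 3 of 8 oligodendrocyte markers were, with Gfap and Mog not among them. LPS+IFNg replicate 3 stood apart from the other LPS+IFNg libraries: it held the lowest of the 3 values for 40 of the 63 members (63.5%), against 41.3% of all genes. It held the highest value for 18 members (28.6%), against 43.0% of all genes, so it stood apart in both directions. Class counts and the fold changes of called members with LPS+IFNg are therefore given with and without it. In bulk RNA, a smaller share of cells that express a gene and less of its RNA per cell cannot be told apart. The 3 stimuli were set against the same 6 untreated libraries.

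In untreated cells the members were abundant, with means of 81.2 for Hnrnph3 to 5206 for Prpf8 and a median of 956, against 278 for all genes. Their coefficient of variation over the 6 untreated libraries ran from 1.49% to 21.4%, with a median of 5.40%. Per kb of the longest transcript annotated as principal, the Srsf genes ranged from 147 for Srsf4 to 1064 for Srsf2, with Srsf3 next at 511. The Hnrnp genes ranged from 31.0 for Hnrnpr to 2458 for Hnrnpa2b1, followed by 2164 for Hnrnpf. The Snrp genes ranged from 99.0 for Snrpf to 2609 for Snrpb, which encodes a Sm ring protein, with Snrpe next at 472. The Sf3 genes ranged from 141 for Sf3b5 to 926.5 for Sf3b2, and the Prpf genes from 74.9 for Prpf4 to 840 for Prpf19. Levels per kb rest on 1 annotated transcript per gene (GENCODE M21), and the transcripts in use in these cells were not measured. The lowest ranks of Hnrnpr and Sf3b5 depend on that length. Hnrnpr was given 21452 bases, and its untreated mean of 665.5 was above that of Hnrnph3. Sf3b5 was given 3841 bases, and its untreated mean was 543, against 422 for Sf3b6.

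The members separated by class and by stimulus. With LPS+IFNg, 13 of the 63 genes rose and 28 fell, with a median log2 fold change of -0.09. Over all 11138 genes tested, 29.5% rose and 29.4% fell (58.9% called) and the median was 0.00. Without LPS+IFNg replicate 3, 12 members rose and 25 fell, against 26.9% and 28.1% of all genes, and the members' median was -0.04. With TGFb, 2 rose and 27 fell, with a median of -0.15, against 24.1% and 23.4% of all genes (47.5% called) and a median of 0.01. With IL4, 1 rose and 6 fell, with a median of -0.09, against 9.89% and 7.33% of all genes (17.2% called) and a median of 0.00. The share of members that fell was thus 44.4% with LPS+IFNg and 42.9% with TGFb, both above the share of all genes. With IL4 it was 9.52%, but that count rests on single libraries: without LPS+IFNg replicate 3, 17 members fell, against 10.98% of all genes, and without untreated replicate 5 or IL4 replicate 2, 2 fell. The 13 members called with no stimulus were Hnrnpc, Hnrnph2, Hnrnpk, Prpf18, Sf3b1, Sf3b5, Sf3b6, Snrpa, Snrpb, Snrpb2, Snrpc, Snrpf and Snrpg.

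**Figure D1:**
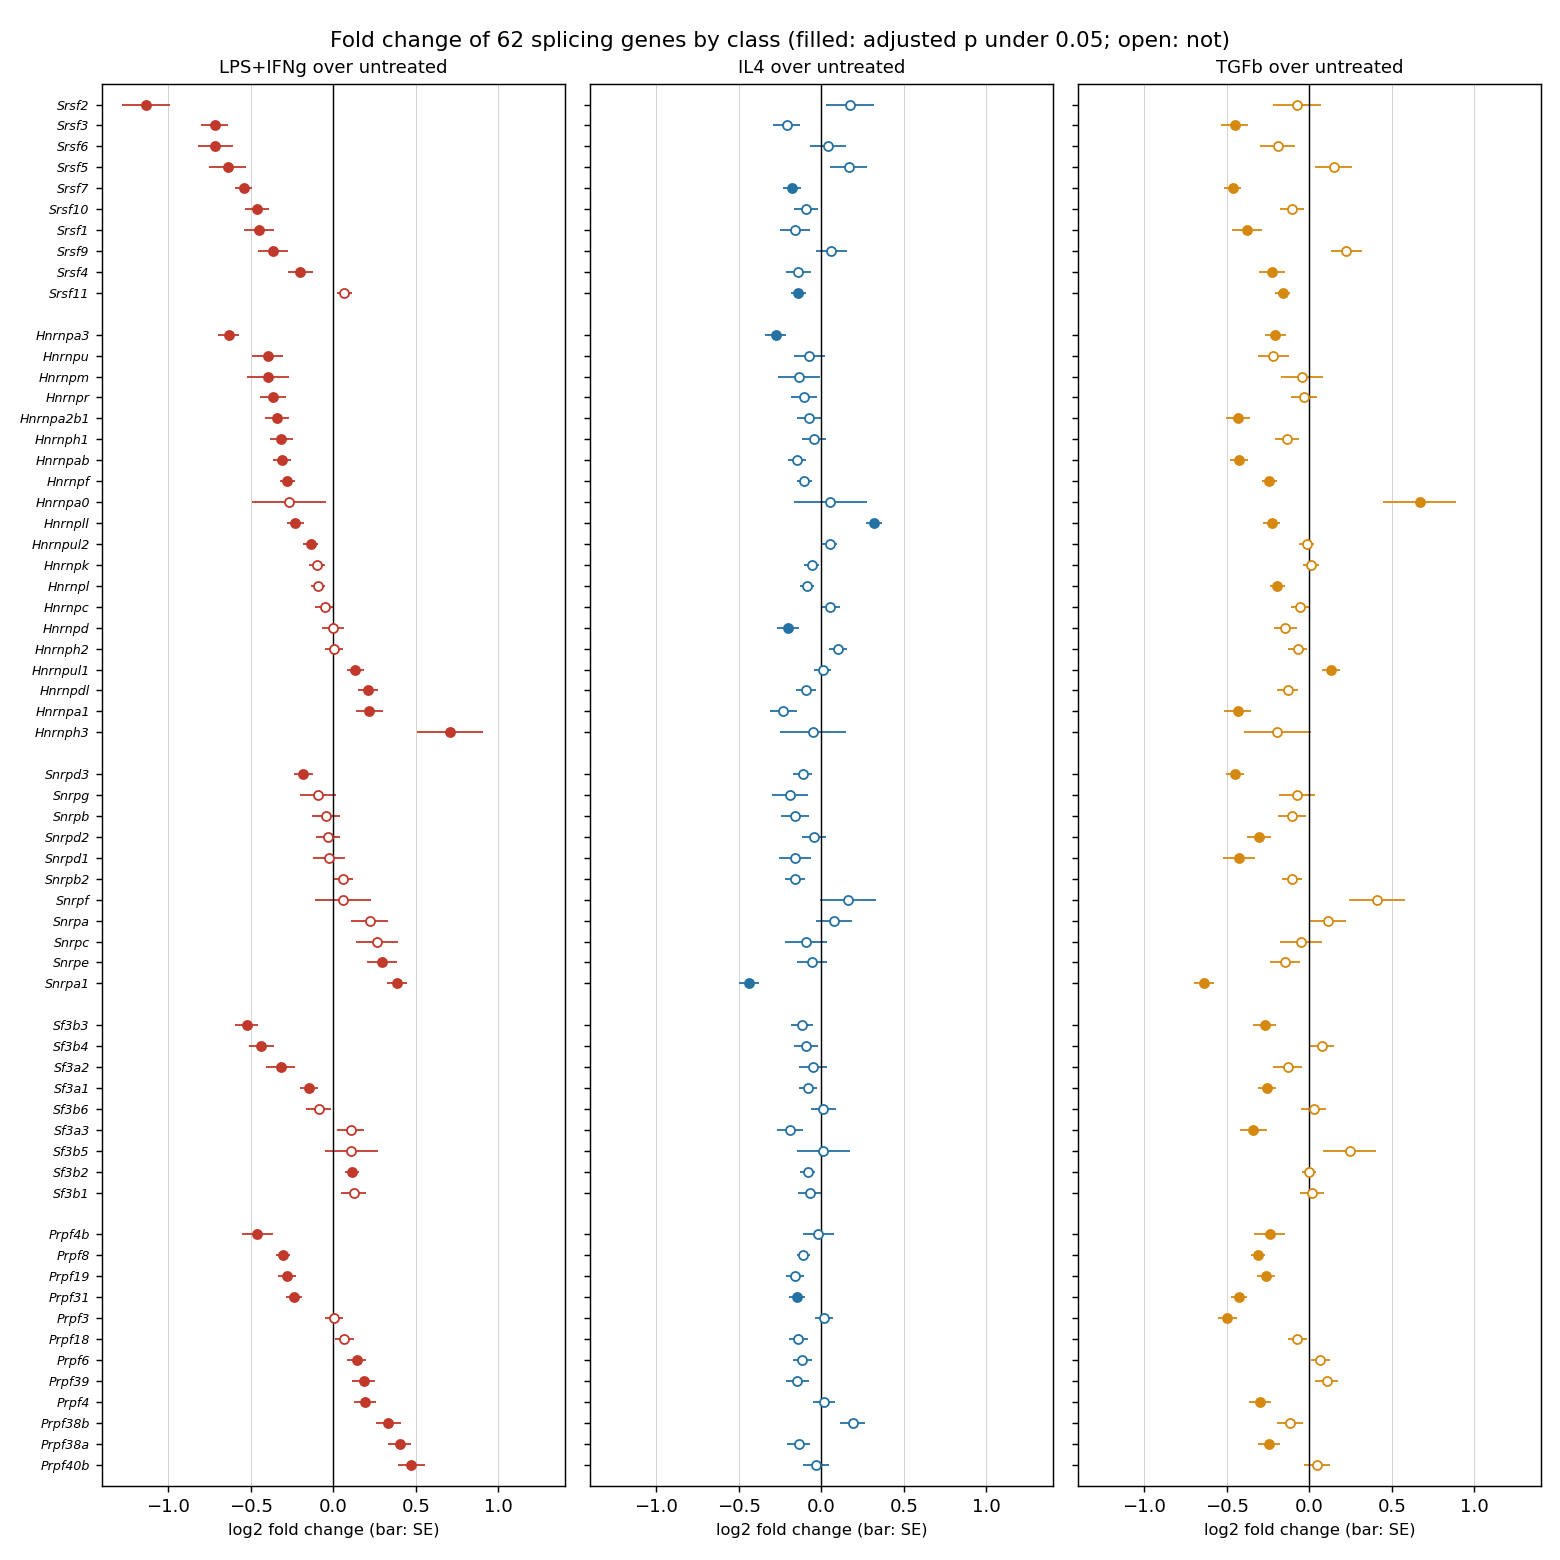
Log2 fold change (x axis) with its standard error for 62 of the 63 genes (rows, by class), for LPS+IFNg, IL4 and TGFb over untreated. Filled points passed an adjusted p of 0.05. In the LPS+IFNg panel 9 of 10 Srsf genes are filled and left of 0, from -1.13 for Srsf2 to -0.20 for Srsf4, while in the TGFb panel 26 of 28 filled points lie left of 0.

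The SR protein genes gave the largest and most uniform shift of the 5 classes with LPS+IFNg, with a median log2 fold change of -0.50. Of these 10 genes, 9 fell (90%, against 29.4% of all genes) and none rose (against 29.5%). Their summed count was 74.8%, 76.1% and 55.1% of the untreated mean in the LPS+IFNg libraries, 95.5% to 100.3% in the IL4 libraries, 85.8% to 87.7% in the TGFb libraries and 98.1% to 101.7% in the untreated libraries. The sums of all LPS+IFNg and TGFb libraries lay below every untreated library, and LPS+IFNg replicate 3 lay lowest. Without replicate 3, 8 of 10 fell, the median was -0.38, and Srsf4 was the gene that lost its call.

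**Figure D2:**
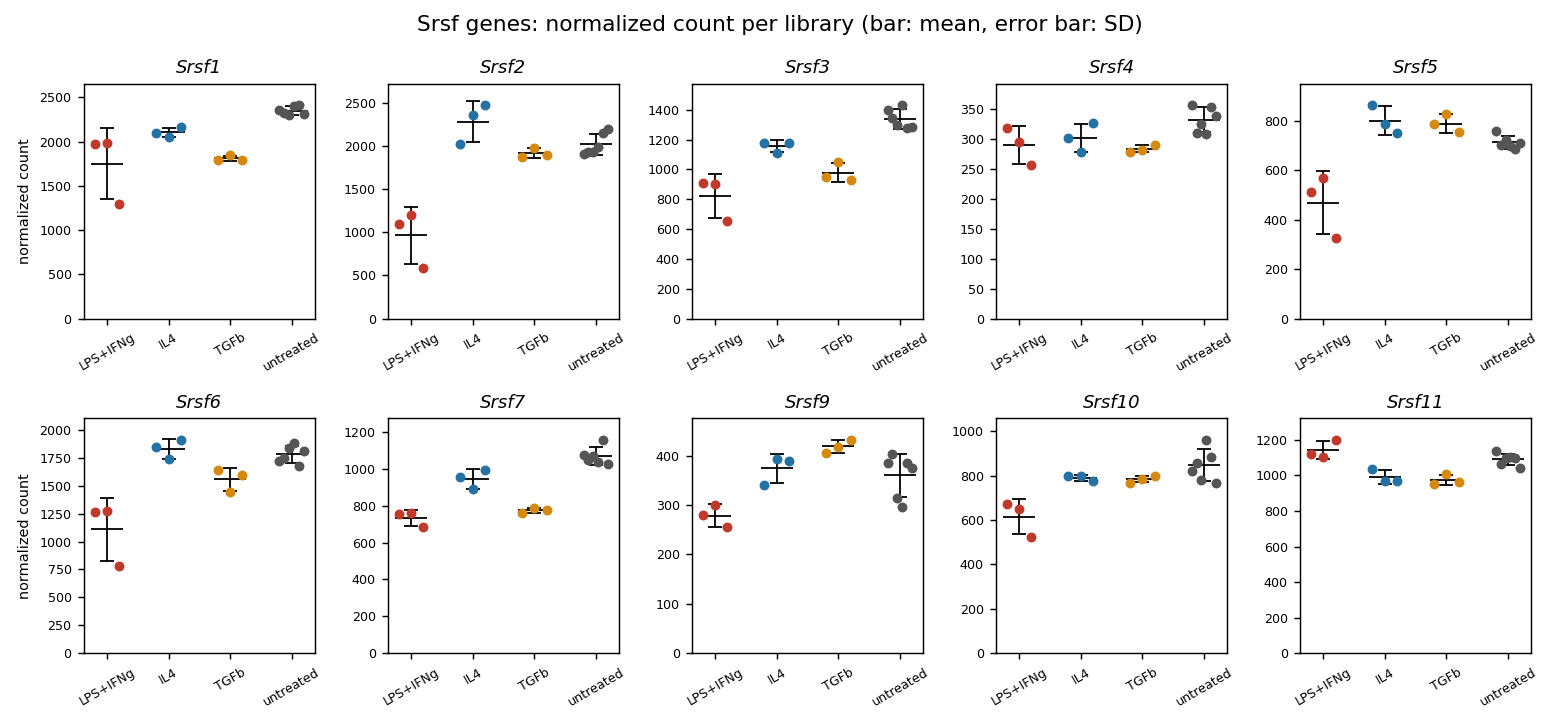
Normalized count per library (y axis, from 0) of the 10 Srsf genes by group, with bars for the mean and SD. Srsf2 lies between 586 and 1203 in LPS+IFNg libraries, all below the lowest untreated library at 1911, while Srsf11 in LPS+IFNg libraries lies at 1106 to 1200 and overlaps the untreated ones.

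Srsf2 (SC35), an SR protein that marks nuclear speckles, fell most. It had 1102, 1203 and 586 normalized counts in LPS+IFNg libraries, against a lowest, median and highest of 1911, 1960 and 2202 in untreated libraries. No LPS+IFNg value reached the untreated range, and replicate 3 lay lowest. The log2 fold change was -1.13 (SE 0.15, limma adjusted p = 2.14e-06), and -0.81 without replicate 3 (adjusted p = 3.35e-10). In IL4 libraries Srsf2 had 2021, 2356 and 2477, and in TGFb libraries 1875, 1983 and 1891, both overlapping the untreated range, and neither stimulus changed it at the threshold (adjusted p = 0.472 and 0.707).

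Srsf3, the smallest SR protein and a factor in both splicing and messenger RNA export, had 910, 905 and 651.5 with LPS+IFNg, against 1276, 1322 and 1432 (lowest, median and highest) in untreated libraries. All LPS+IFNg values lay below untreated. It fell by 0.72 on the log2 scale with LPS+IFNg (SE 0.08, adjusted p = 4.83e-07) and by 0.45 with TGFb (adjusted p = 0.000173), where the libraries held 951, 1052 and 931. The fall with LPS+IFNg was 0.56 without replicate 3. With IL4 it had 1178, 1111 and 1179, also below every untreated library, but did not pass the test (log2 fold change -0.21, adjusted p = 0.0897).

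Srsf6, an SR protein also known as B52 in flies, had 1266, 1274 and 785 with LPS+IFNg, against 1680, 1779 and 1883 (lowest, median and highest) in untreated libraries. All LPS+IFNg libraries were below untreated, by -0.72 on the log2 scale (SE 0.11, adjusted p = 1.22e-05), and by -0.49 without replicate 3. With IL4 it had 1735 to 1911, overlapping untreated, and with TGFb 1443 to 1638, below every untreated library. It was called with neither, but without LPS+IFNg replicate 3 its fall with TGFb passed (log2 fold change -0.19, adjusted p = 0.0012). Srsf5 was also called with LPS+IFNg only. It had 512, 569 and 327 with LPS+IFNg, against 686 to 758 in untreated libraries, a log2 fold change of -0.64 (SE 0.11, adjusted p = 7.98e-05) that was -0.40 without replicate 3 (adjusted p = 7.83e-06). With IL4 and TGFb it had 750 to 864 and 753 to 828, neither called. Without LPS+IFNg replicate 3 both were called higher (0.17 and 0.15).

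Srsf7, a close relative of Srsf3 with a zinc knuckle, was lower with every stimulus. It had 753, 760 and 684 with LPS+IFNg, 953, 889 and 992 with IL4, 761, 785 and 776 with TGFb, and 1026, 1058 and 1157 (lowest, median and highest) in untreated libraries. None of the 9 stimulated libraries reached the untreated range. The log2 fold changes were -0.54 with LPS+IFNg (SE 0.05, adjusted p = 4.22e-08, and -0.50 without replicate 3), -0.18 with IL4 (SE 0.05, adjusted p = 0.0231) and -0.46 with TGFb (SE 0.05, adjusted p = 7.11e-07).

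Srsf1, the founding SR protein (SF2/ASF), fell with LPS+IFNg and with TGFb. It had 1978, 1990 and 1290 with LPS+IFNg and 1794, 1848 and 1793 with TGFb, against 2297, 2343 and 2414 (lowest, median and highest) in untreated libraries. The log2 fold changes were -0.45 (SE 0.09, adjusted p = 0.000335) and -0.38 (SE 0.09, adjusted p = 0.00239), and neither group overlapped untreated. With LPS+IFNg replicate 3 left out, Srsf1 was at -0.25 with LPS+IFNg (adjusted p = 1.17e-05). Srsf10 was called with LPS+IFNg and with no other stimulus (525 to 670, against 768 to 961 in untreated libraries, log2 fold change -0.46). Without replicate 3, Srsf10 was at -0.35, Srsf9 at -0.30 and Srsf4 at -0.11 (adjusted p = 0.234). Srsf4 fell with LPS+IFNg (-0.20) and TGFb (-0.23), and Srsf9 with LPS+IFNg (-0.37), where it had 255 to 301, against 297 to 404 in untreated libraries. With TGFb, Srsf9 had 405 to 432, above every untreated library, but was not called (adjusted p = 0.0541).

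Srsf11, an SR-like protein with an atypical RNA-binding domain, was the exception with LPS+IFNg. It had 1119, 1106 and 1200 in those libraries, against 1042, 1098 and 1136 (lowest, median and highest) in untreated libraries, and was not called (log2 fold change 0.07, adjusted p = 0.221). It fell with IL4 to 1034, 966 and 970 (log2 fold change -0.14, adjusted p = 0.0402) and with TGFb to 954, 1005 and 964 (log2 fold change -0.16, adjusted p = 0.00656), in both cases below every untreated library.

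The 120 bases before the RefSeq start of 5 Srsf genes are shown (GRCm38.p6, 5′ to 3′ on the gene's strand). These were the 3 Srsf genes with the largest fall with LPS+IFNg and the 3 with the largest fall with TGFb, Srsf3 being in both. The other Srsf genes also fell with LPS+IFNg, with TGFb or with both, and their windows are not shown. Capitals mark 1 of 2 motifs, CCAAT or its reverse complement ATTGG, and TATAAA or its reverse complement TTTATA.
Srsf2, chr11:116853095-116853214, minus strand: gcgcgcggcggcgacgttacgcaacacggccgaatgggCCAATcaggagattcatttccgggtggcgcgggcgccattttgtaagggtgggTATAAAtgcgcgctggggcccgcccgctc
Srsf3, chr17:29032540-29032659, plus strand: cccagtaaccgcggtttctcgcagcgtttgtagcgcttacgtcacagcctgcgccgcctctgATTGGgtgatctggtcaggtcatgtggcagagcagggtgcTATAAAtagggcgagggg
Srsf6, chr2:162931388-162931507, plus strand: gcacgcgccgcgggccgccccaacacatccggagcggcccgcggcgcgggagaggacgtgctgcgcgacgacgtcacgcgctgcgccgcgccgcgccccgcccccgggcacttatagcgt
Srsf7, chr17:80207306-80207425, minus strand: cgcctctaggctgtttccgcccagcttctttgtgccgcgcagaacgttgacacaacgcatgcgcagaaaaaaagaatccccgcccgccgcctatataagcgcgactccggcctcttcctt
Srsf1, chr11:88047253-88047372, plus strand: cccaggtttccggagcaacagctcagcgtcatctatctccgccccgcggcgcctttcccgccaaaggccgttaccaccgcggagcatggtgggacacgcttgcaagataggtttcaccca

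Among the 5 printed windows, Srsf2 and Srsf3 held both motifs and the other 3 held neither. Srsf1 did hold CCAAT in its longer promoter of 300 bases, outside the printed window. RefSeq promoters of 300 bases (250 before to 50 after the start) were found for 55 of the 63 members and for 8512 genes of the table. TATAAA was in 10.9% of the members' promoters and 6.53% of all 8512, CCAAT in 49.1% and 39.5%, and both together in 7.27% and 2.64%, on either strand. The 4 members with both were Srsf2, Srsf3, Hnrnpab and Sf3b3. The ETS core CCGGAAG, searched on both strands, was in 34.5% of the members' promoters and 20.1% of all, and in 6 of 7 Sf3 promoters. CACGTG was in 14.5% and 10.6%, TTCNNNGAA in 10.9% and 6.67%, and the NRF1 core motif in 0.0% and 2.33%. Matches of different motifs overlapped in 0 members and in 40 of the 8512 promoters. The motifs were chosen with the results of these data known. In the annotation, 9 of 10 Srsf genes had a transcript marked for nonsense-mediated decay, against 31 of all 63 members and 30.3% of the protein-coding genes of the table. The counts are per gene, so the share of such transcripts in these libraries was not measured.

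The hnRNP genes moved less uniformly with LPS+IFNg, with a median log2 fold change of -0.18. Of these 20 genes, 4 were higher (20%, against 29.5% of all genes) and 10 lower (50%, against 29.4%). Their summed count was 91.3%, 91.8% and 76.4% of the untreated mean in LPS+IFNg libraries, 94.1% to 96.7% in IL4 libraries, 87.2% to 90.6% in TGFb libraries and 98.1% to 103.5% in untreated libraries. Excluding LPS+IFNg replicate 3, 3 rose and 9 fell with LPS+IFNg and the median was -0.10, and 2 rose without untreated replicate 3 or LPS+IFNg replicate 2.

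Hnrnpa3, an A/B-type hnRNP, had the largest fall of the class with LPS+IFNg. It had 975, 956 and 812 in LPS+IFNg libraries, 1196, 1207 and 1106 in IL4 libraries, 1189, 1261 and 1234 in TGFb libraries, and 1285, 1401 and 1564 (lowest, median and highest) in untreated libraries. Every stimulated library lay below every untreated one. The log2 fold changes were -0.64 with LPS+IFNg (SE 0.06, adjusted p = 1.01e-07, and -0.55 without replicate 3), -0.28 with IL4 (SE 0.06, adjusted p = 0.0055) and -0.21 with TGFb (SE 0.06, adjusted p = 0.0135).

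Hnrnpu (SAF-A), which binds nuclear scaffold DNA and RNA, had 3626, 3796 and 2398 with LPS+IFNg, against 4114, 4228 and 4312 (lowest, median and highest) in untreated libraries, a log2 fold change of -0.40 (SE 0.09, adjusted p = 0.00125). It was -0.19 without replicate 3 (adjusted p = 0.000303). Hnrnpm, which binds GU-rich RNA, had 2041, 2074 and 1141, against 2110, 2196 and 2384 in untreated libraries. Its call with LPS+IFNg (log2 fold change -0.39, adjusted p = 0.0124) was lost without replicate 3 (-0.11, adjusted p = 0.106). The other genes that fell with LPS+IFNg were Hnrnpr (-0.37), Hnrnpa2b1 (-0.34), Hnrnph1 (-0.32), Hnrnpab (-0.31), Hnrnpf (-0.28), Hnrnpll (-0.23) and Hnrnpul2 (-0.14). Without LPS+IFNg replicate 3 these were smaller and all passed: -0.22 for Hnrnpr, -0.19 for Hnrnpa2b1, -0.18 for Hnrnph1, -0.22 for Hnrnpab, -0.23 for Hnrnpf, -0.21 for Hnrnpll and -0.11 for Hnrnpul2 (adjusted p = 0.0499).

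Hnrnph3, a member of the H/F group and the least abundant gene of the set in untreated cells, rose most with LPS+IFNg. It had 130, 128 and 135.5 with LPS+IFNg, against 56.1, 85.2 and 94.9 (lowest, median and highest) in untreated libraries, with no overlap. The log2 fold change was 0.71 (SE 0.20, adjusted p = 0.00535), and 0.68 without replicate 3 (adjusted p = 0.0121). It was not called with IL4 (74.7 to 80.8) or TGFb (42.7 to 93.7). Its relatives went the other way or did not pass: Hnrnph1 and Hnrnpf fell with LPS+IFNg, and Hnrnph2 had a log2 fold change of 0.00.

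Hnrnpa1, the prototype A/B-type hnRNP and a splicing silencer, had values on either side of untreated. It had 1447, 1359 and 1096 with LPS+IFNg, 963, 896 and 987 with IL4, 797, 860 and 810 with TGFb, and 943, 1156 and 1207 (lowest, median and highest) in untreated libraries. It rose with LPS+IFNg by 0.22 on the log2 scale (SE 0.08, adjusted p = 0.0302), although replicate 3 overlapped untreated, and it fell with TGFb (-0.44, SE 0.08, adjusted p = 0.000252), where no library overlapped. The rise with LPS+IFNg was 0.33 without replicate 3 (adjusted p = 0.000388) and 0.13 without replicate 1 (adjusted p = 0.208). Hnrnpdl, a relative of Hnrnpd, rose with LPS+IFNg to 538, 505 and 558, against 433.5 to 507 in untreated libraries (log2 fold change 0.21, adjusted p = 0.00664, and 0.18 without replicate 3). Hnrnpul1 was higher with LPS+IFNg (0.13, adjusted p = 0.0346) and with TGFb (0.13, adjusted p = 0.0469), the only member higher with both. Its rise with LPS+IFNg was 0.08 and did not pass without replicate 3 (adjusted p = 0.213), and its call with TGFb was lost in 11 of 15 cases when 1 library was left out.

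**Figure D3:**
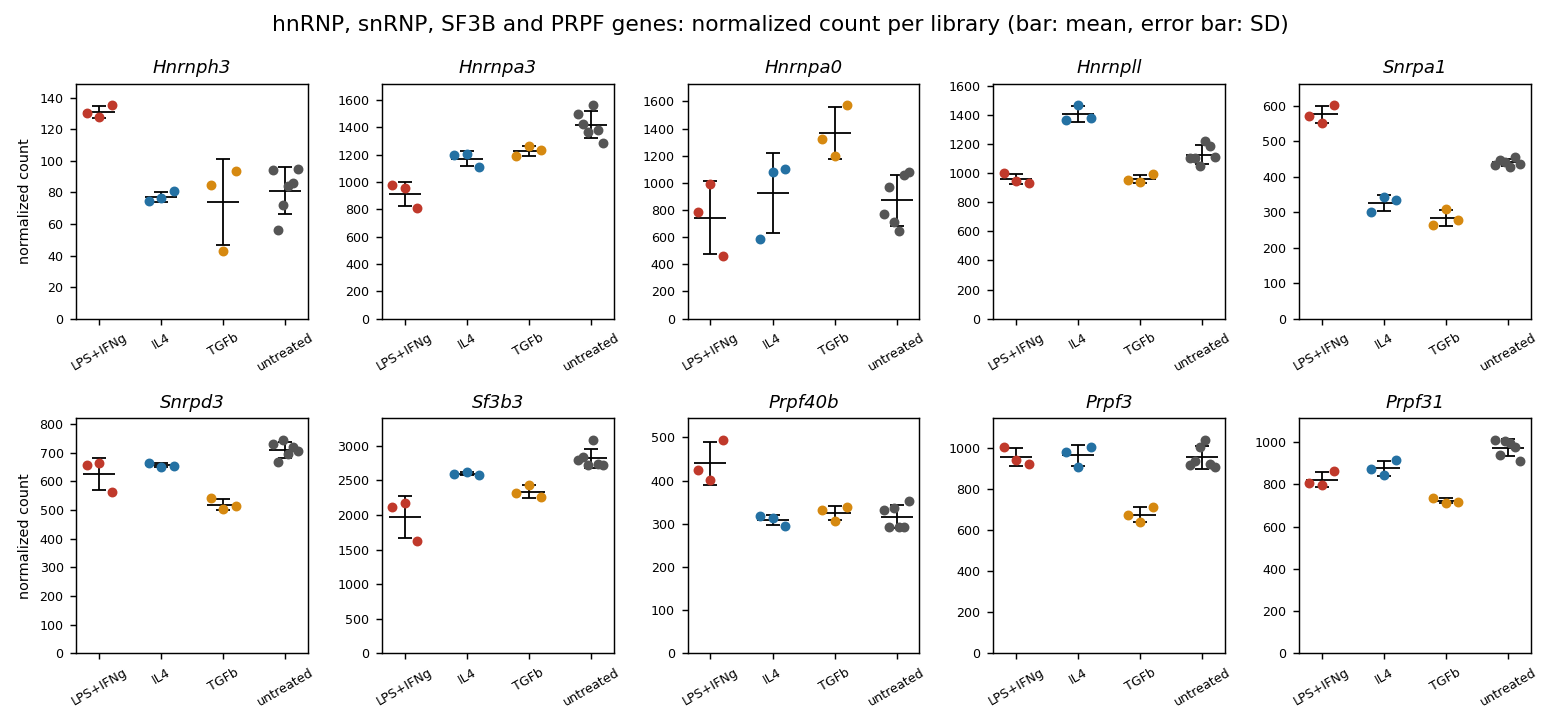
Normalized count per library (y axis, from 0) of 10 genes of the hnRNP, snRNP, SF3B and PRPF classes by group, with bars for the mean and SD. Snrpa1 lies at 552 to 602 in LPS+IFNg libraries, 300.0 to 342 in IL4 libraries, 264 to 307 in TGFb libraries and 426 to 456 in untreated libraries, with LPS+IFNg above and both other stimuli below untreated.

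TGFb lowered 7 of the 20 hnRNP genes (35%, against 23.4% of all genes) and raised 2 (10%, against 24.1%). Without LPS+IFNg replicate 3, 10 fell and 2 rose with TGFb, against 26.4% and 27.5% of all genes. Hnrnpa0, a single-exon A/B-type gene whose product binds AU-rich RNA, had 1324, 1202 and 1574 with TGFb, against 647, 870.0 and 1078 (lowest, median and highest) in untreated libraries. All TGFb libraries lay above untreated, and the log2 fold change was 0.67 (SE 0.22, adjusted p = 0.0193). It was the most variable member within groups: LPS+IFNg libraries held 782, 990 and 460, and IL4 libraries 586, 1083 and 1103. Without TGFb replicate 3 its rise was 0.56 and did not pass (adjusted p = 0.0978). The falls with TGFb were led by Hnrnpa1, Hnrnpa2b1 (2983 to 3048, against 3971 to 4248 in untreated libraries, log2 fold change -0.43) and Hnrnpab (2601 to 2818, against 3517 to 3881, -0.42). Hnrnpf (-0.24), Hnrnpll (-0.23), Hnrnpa3 (-0.21) and Hnrnpl (-0.19) also fell with TGFb.

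Hnrnpll, a splicing silencer best known from activated lymphocytes, where it controls exons of Ptprc, was the only member that rose with IL4. It had 1367, 1470 and 1382 with IL4, against 1051, 1106 and 1219 (lowest, median and highest) in untreated libraries, and 933 to 999 with LPS+IFNg and 941 to 994 with TGFb. The IL4 libraries lay above untreated and the other stimulated libraries below, with no overlap. The log2 fold changes were 0.32 with IL4 (SE 0.05, adjusted p = 0.000212), -0.23 with LPS+IFNg (SE 0.05, adjusted p = 0.000683) and -0.23 with TGFb (SE 0.05, adjusted p = 0.00111). Hnrnpl, its closest relative, had a log2 fold change of -0.09 with IL4 and was not called. Besides Hnrnpa3, Hnrnpd (AUF1) fell with IL4, to 915, 861 and 965, against 1001 to 1128 in untreated libraries (log2 fold change -0.20, adjusted p = 0.0472).

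The Snrp genes encode Sm ring proteins and proteins of the U1 and U2 particles. With LPS+IFNg, 2 of 11 were called higher (18.2%, against 29.5% of all genes) and 1 lower (9.09%, against 29.4%). The 11 genes had 6 positive and 5 negative fold changes, with a median of 0.06. Their sum was 104.7%, 109.3% and 92.1% of the untreated mean in LPS+IFNg libraries and 86.1% to 92.5% in TGFb libraries, against 94.3% to 105.1% in untreated libraries. When LPS+IFNg replicate 3 was left out, 4 rose and none fell with LPS+IFNg and the median was 0.09, and without replicate 1, 1 rose. The calls gained without replicate 3 were Snrpa (0.34) and Snrpc (0.36). With TGFb 4 of 11 fell (36.4%, against 23.4% of all genes) and none rose (against 24.1%). With IL4 1 fell (9.09%, against 7.33%) and none rose (against 9.89%).

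Snrpa1, a U2 particle protein that pairs with Snrpb2 on the U2 small nuclear RNA, had the widest spread between stimuli of any member called in both directions. It had 572, 552 and 602 with LPS+IFNg, 300.0, 342 and 333 with IL4, 264, 307 and 277 with TGFb, and 426, 438 and 456 (lowest, median and highest) in untreated libraries. It rose with LPS+IFNg by 0.39 on the log2 scale (SE 0.06, adjusted p = 3.15e-05), and by 0.35 without replicate 3. It fell with IL4 (-0.44, SE 0.06, adjusted p = 6.54e-05) and with TGFb (-0.64, SE 0.06, adjusted p = 1.22e-07). No group overlapped untreated. Its partner Snrpb2 was called with none of the 3 stimuli, with log2 fold changes of 0.06, -0.16 and -0.11 for LPS+IFNg, IL4 and TGFb.

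Among the Sm ring genes, Snrpe rose with LPS+IFNg to 311, 279 and 281, against 205 to 277 in untreated libraries (log2 fold change 0.29, SE 0.09, adjusted p = 0.00914, and 0.0574 without LPS+IFNg replicate 1), and its log2 fold change was 0.31 without replicate 3. Snrpd3 fell with TGFb to 540.5, 504 and 513, against 667 to 745 in untreated libraries (-0.45, SE 0.06, adjusted p = 2.95e-06). Snrpd3 was also called lower with LPS+IFNg (-0.18, adjusted p = 0.00978), but not without replicate 3 (-0.11, adjusted p = 0.100). Snrpd1 fell with TGFb to 201, 226 and 181, against 240.5 to 326 in untreated libraries (-0.43, adjusted p = 0.00129), and Snrpd2 fell by 0.31 (adjusted p = 0.00204) with some overlap. Snrpb, Snrpf and Snrpg, of the same ring, and Snrpa and Snrpc of the U1 particle were not called with any stimulus when all libraries were used. Processed copies of several small genes such as Snrpe, Snrpg and Hnrnpa1 exist in the genome, so their counts are uncertain where the authors' counting could split reads.

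Of 9 Sf3 genes, 1 rose (11.1%, against 29.5% of all genes) and 4 fell (44.4%, against 29.4%) with LPS+IFNg. With TGFb 3 fell (33.3%, against 23.4%) and none rose (against 24.1%). None was called with IL4, against 17.2% of all genes. Without LPS+IFNg replicate 3, none rose and 4 fell with LPS+IFNg. Sf3b3, a scaffold subunit of SF3B, had 2111, 2176 and 1630 with LPS+IFNg and 2319, 2437 and 2254 with TGFb, against 2727, 2765 and 3088 (lowest, median and highest) in untreated libraries. Both groups lay below every untreated library, with log2 fold changes of -0.53 (SE 0.07, adjusted p = 3e-06) and -0.27 (SE 0.07, adjusted p = 0.0036). With LPS+IFNg replicate 3 left out, Sf3b3 was at -0.39 and Sf3b4 at -0.36 with LPS+IFNg. Sf3b4, an RNA-binding subunit of the same complex, fell with LPS+IFNg to 659, 634 and 557, against 768 to 899 in untreated libraries (log2 fold change -0.44, adjusted p = 6.08e-05), while in TGFb libraries it had 850.5 to 892 and was not called.

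Sf3b1, the subunit that holds the branch point adenosine and is often mutated in blood cancers, was not called with any stimulus. It had 2414, 2313 and 3132 with LPS+IFNg, 2200.0 to 2398 with IL4 and 2316 to 2602 with TGFb, against 2231 to 2484 in untreated libraries, and LPS+IFNg replicate 3 held its highest value. Sf3b2 was called higher with LPS+IFNg by a small margin (3148, 3173 and 3367, against 2927 to 3063 in untreated libraries, log2 fold change 0.11, adjusted p = 0.0332). It did not pass without replicate 3 (0.08, adjusted p = 0.115), and it had a log2 fold change of -0.01 when libraries were rescaled to the same total and -0.04 after quantile normalization. Of the SF3A complex, Sf3a2 fell with LPS+IFNg (-0.32, adjusted p = 0.00372) and was at -0.20 without replicate 3. Sf3a1 fell with LPS+IFNg (-0.15, adjusted p = 0.0287) and TGFb (-0.26, adjusted p = 0.000718), and with LPS+IFNg it was at -0.23 without replicate 3 and -0.10 without replicate 2 (adjusted p = 0.185). Sf3a3 fell with TGFb to 461.5, 408 and 437, against 528 to 617 in untreated libraries (-0.34, adjusted p = 0.00204). Sf3b5 and Sf3b6 were not called.

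The Prpf genes were the class with most rises under LPS+IFNg, with a median of 0.09. Of 13, 6 rose (46.2%, against 29.5% of all genes) and 4 fell (30.8%, against 29.4%), or 5 and 4 without LPS+IFNg replicate 3. Under TGFb 8 Prpf genes fell (61.5%, against 23.4%) and none rose (against 24.1%), with a median of -0.24. Their sum was 92.8% to 95.7% of the untreated mean with LPS+IFNg, 93.1% to 96.3% with IL4 and 83.9% to 84.5% with TGFb, against 95.8% to 104.4% in untreated libraries. The TGFb libraries lay below all others.

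Prpf40b, a relative of the yeast U1-associated protein Prp40, had 424, 401 and 494.5 with LPS+IFNg, against 291, 313 and 352 (lowest, median and highest) in untreated libraries. All LPS+IFNg libraries were above untreated, and the log2 fold change was 0.47 (SE 0.08, adjusted p = 5.66e-05). Prpf38a, which joins the spliceosome as it is activated, rose with LPS+IFNg to 537, 554.5 and 580, against 381 to 459 in untreated libraries (0.40, SE 0.07, adjusted p = 6.63e-05). It fell with TGFb (-0.24, adjusted p = 0.00711), with some overlap. Prpf38b had 970, 848 and 1138 with LPS+IFNg, against 727 to 869 (0.33, adjusted p = 0.00105). Prpf4 (0.19), Prpf39 (0.18) and Prpf6 (0.14) also rose with LPS+IFNg. Excluding LPS+IFNg replicate 3, Prpf40b was at 0.38, Prpf38a at 0.37, Prpf38b at 0.22, Prpf39 at 0.19 and Prpf6 at 0.16, and Prpf4 did not pass (0.17, adjusted p = 0.0561).

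Prpf4b, a kinase of spliceosomal proteins, had 691, 656 and 452 with LPS+IFNg, against 766 to 840 in untreated libraries (log2 fold change -0.46, adjusted p = 0.000341), and was at -0.27 without replicate 3 (adjusted p = 0.000375). Prpf8, the large core protein that cradles the catalytic site, had 4148, 4157 and 4342 with LPS+IFNg and 4097, 4232 and 4234 with TGFb, against 4995, 5150 and 5514 (lowest, median and highest) in untreated libraries. It fell by a like amount with both, -0.30 (SE 0.04, adjusted p = 4.56e-06) and -0.31 (SE 0.04, adjusted p = 5.35e-06), without overlap. Prpf19, a ubiquitin ligase of the spliceosome, fell with LPS+IFNg (-0.28, adjusted p = 0.000227) and with TGFb (-0.26, adjusted p = 0.000678). When LPS+IFNg replicate 3 was left out, Prpf8 was at -0.33 and Prpf19 at -0.22 with LPS+IFNg.

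Of the proteins that hold the U4/U6 and U5 particles together, Prpf3 separated the stimuli most. It had 675, 642 and 713 with TGFb, against 910, 932 and 1042 (lowest, median and highest) in untreated libraries, 925 to 1006 with LPS+IFNg and 909 to 1007 with IL4. The log2 fold change with TGFb was -0.50 (SE 0.06, adjusted p = 7.94e-07), and it was 0.00 with LPS+IFNg and 0.02 with IL4. Prpf31 fell with all stimuli, to 799 to 865 with LPS+IFNg (-0.24, adjusted p = 0.00031), 844 to 914 with IL4 (-0.15, adjusted p = 0.0402) and 713 to 736 with TGFb (-0.43, adjusted p = 8.29e-07), against 911.5 to 1011 in untreated libraries. Its IL4 value overlapped untreated, and with LPS+IFNg it was at -0.28 without replicate 3. Prpf4 (-0.30) also fell with TGFb, while Prpf6 and Prpf39 were not called with it.

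**Figure D4:**
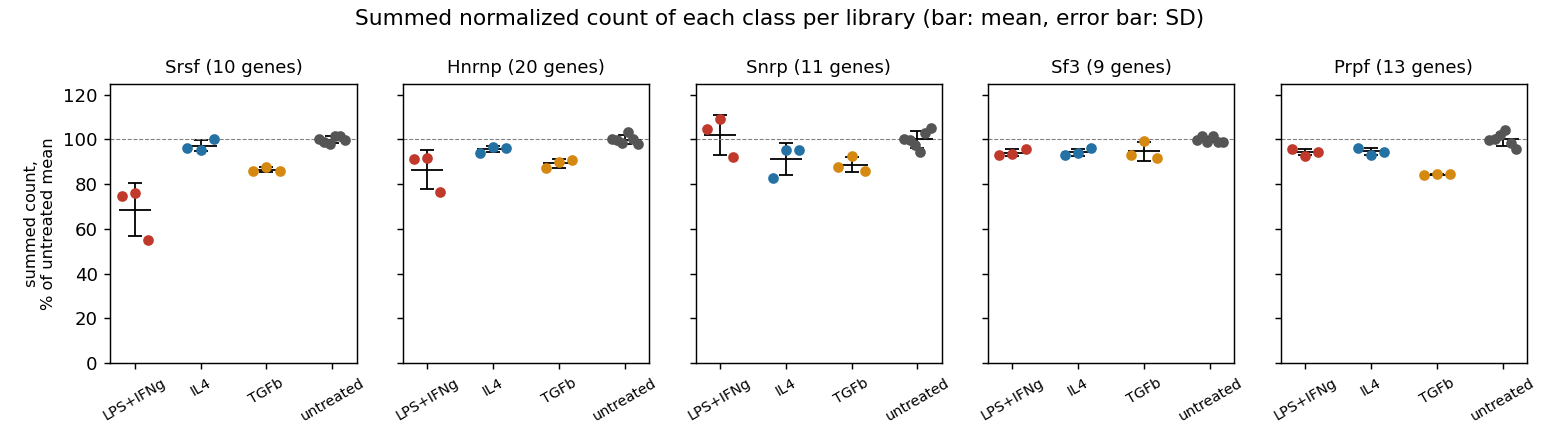
Summed normalized count of each class in each library as a percent of the untreated mean (y axis, from 0), by group, with bars for the mean and SD. The Srsf sums with LPS+IFNg (55.1% to 76.1%) and the Prpf sums with TGFb (83.9% to 84.5%) lie below all other groups, while the Snrp sums with LPS+IFNg (92.1% to 109.3%) surround the untreated ones.

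Set against each other, the stimuli differed by class. Between LPS+IFNg and TGFb, 17 members were higher with LPS+IFNg and 12 lower, against 31.9% and 30.8% of all genes (62.6% called). All 7 called Prpf genes and all 5 called Snrp genes were higher with LPS+IFNg, led by Snrpa1 (log2 difference 1.02, SE 0.07, adjusted p = 4.63e-10), Prpf38a (0.65), Prpf3 (0.50) and Prpf4 (0.49). Of the 7 called Srsf genes 6 were lower with LPS+IFNg, led by Srsf2 (-1.06, SE 0.17, adjusted p = 2.32e-05), Srsf5 (-0.79) and Srsf9 (-0.59), and Srsf11 was higher (0.23). Hnrnph3 (0.90) and Hnrnpa1 (0.65) were higher with LPS+IFNg, and Hnrnpa0 (-0.94) was lower. Without LPS+IFNg replicate 3, 24 members were higher and 10 lower, with Srsf2 at -0.73, Srsf5 at -0.55, Srsf9 at -0.53, Hnrnpa0 at -0.63 and Snrpa1 at 0.99, while Srsf3 did not pass (-0.11, adjusted p = 0.143) and Srsf1 was called higher (0.13, adjusted p = 0.0123). Hnrnph3 was at 0.55 without TGFb replicate 2. A Prpf gene was also called lower without LPS+IFNg replicate 1 or 2, and a Snrp gene without TGFb replicate 2.

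Between LPS+IFNg and IL4, 16 members were higher and 22 lower with LPS+IFNg, against 28.8% and 28.8% of all genes (57.7% called). Srsf2 (-1.31, SE 0.17, adjusted p = 2.25e-06), Srsf5 (-0.80), Srsf6 (-0.76) and Hnrnpll (-0.55) were lower with LPS+IFNg, and Snrpa1 (0.82), Hnrnph3 (0.76) and Prpf38a (0.54) were higher. With LPS+IFNg replicate 3 left out, 17 were higher and 20 lower, with Srsf2 at -0.98, Srsf5 at -0.56, Srsf6 at -0.53, Hnrnpll at -0.53 and Snrpa1 at 0.79. Between IL4 and TGFb, 17 members were higher and 2 lower with IL4, against 20.7% and 19.0% of all genes (39.7% called). Hnrnpll (0.55, SE 0.06, adjusted p = 5.19e-07) and Prpf3 (0.51, SE 0.06, adjusted p = 4.06e-06) led the rises, and Prpf39 (-0.25) and Prpf6 (-0.18) were the lower ones. The 17 higher calls numbered 26 without LPS+IFNg replicate 3, 11 without IL4 replicate 2 and 10 without TGFb replicate 1 or 3. Prpf39 lost its call without IL4 replicate 3 (-0.16, adjusted p = 0.115), and Prpf6 without IL4 replicate 2 or 3 or any of the TGFb libraries.

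Leaving out each library in turn, 30 of the 41 calls with LPS+IFNg, 23 of the 29 with TGFb and 3 of the 7 with IL4 passed the threshold every time. With LPS+IFNg, Hnrnpm, Prpf4 and Snrpd3 lost their calls without LPS+IFNg replicate 3 alone, and Snrpe without LPS+IFNg replicate 1 alone. Hnrnpa1 lost it without LPS+IFNg replicate 1 or 2 or untreated replicate 1 or 3, Sf3a1 without LPS+IFNg replicate 1 or 2 or untreated replicate 2, and Prpf39 without LPS+IFNg replicate 1 or untreated replicate 6. Sf3b2 lost it without LPS+IFNg replicate 3 or untreated replicate 2, 5 or 6. Srsf4 lost its LPS+IFNg call without LPS+IFNg replicate 2 or 3 or untreated replicate 1, 5 or 6, Hnrnpul1 without LPS+IFNg replicate 2 or 3 or untreated replicate 3, 4 or 6, and Prpf6 in 10 of 15 cases.

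With TGFb, Hnrnpa0 lost its call without TGFb replicate 3 alone, Hnrnpa3 without TGFb replicate 1 alone, Prpf38a without TGFb replicate 2 alone and Srsf4 without TGFb replicate 1 or 2. Prpf4b lost its TGFb call in 9 of 15 cases. The 2 higher calls with TGFb numbered 0 without TGFb replicate 3 and 5 without LPS+IFNg replicate 3, when Srsf5, Srsf9 and Snrpf joined them. The lower calls with TGFb lay between 24 and 31 whichever library was left out.

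With IL4, Hnrnpll, Hnrnpa3 and Snrpa1 passed every time. Srsf7 lost its call without IL4 replicate 1 or 2 or untreated replicate 5, Srsf11 and Prpf31 lost theirs in 8 of 15 cases each and Hnrnpd in 10. The 6 lower calls with IL4 also fell in number, to 3, without untreated replicate 3, untreated replicate 4 or TGFb replicate 1. LPS+IFNg replicate 3 enters the IL4 comparison only through the spread that all groups share. When it was left out 4 members rose with IL4, against 13.94% of all genes, as Srsf2 (0.17), Srsf5 (0.17) and Prpf38b (0.19) joined Hnrnpll among the rises.

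Use of strand in the authors' counting was not given in the sources used here, and 13 members overlap another gene of the table, so reads of the pairs cannot be told apart where they overlap. Srsf2 overlaps Mettl23 and Mfsd11 on the other strand. With LPS+IFNg, Mfsd11 had 555 ± 10.01, against 753 ± 38.1 in untreated libraries (SD, n = 3 and 6), a log2 fold change of -0.44, and Mettl23 had 73.0 ± 6.53, against 71.0 ± 11.3. Mfsd11 rose with IL4 (log2 fold change 0.45), where Srsf2 was not called. Hnrnph3 overlaps Rufy2, which had 275.5 ± 75.5 with LPS+IFNg, against 332 ± 15.65 in untreated libraries (-0.31), while Hnrnph3 rose. Prpf39 overlaps Fkbp3, which fell with LPS+IFNg (-0.36) while Prpf39 rose. Hnrnpab overlaps Phykpl, which fell with TGFb (-0.83) and LPS+IFNg (-0.33) as Hnrnpab did, and Hnrnpm overlaps March2 on its own strand. Sf3b3 overlaps Cog4, which rose with TGFb (0.30) while Sf3b3 fell. The part of these overlaps in the results was not tested.

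Splicing genes outside the named classes were counted from lists chosen by function. Of 164 such genes tested, 44 rose and 49 fell with LPS+IFNg, 2 rose and 15 fell with IL4, and 11 rose and 70 fell with TGFb. With LPS+IFNg these were 26.8% and 29.9%, near the 29.5% and 29.4% of all genes. With IL4 they were 1.2% and 9.1%, against 9.89% and 7.33% of all genes, and with TGFb 6.7% and 42.7%, against 24.1% and 23.4%. Without LPS+IFNg replicate 3, 6 of the 164 rose and 28 fell with IL4, where the shares of all genes also grew, to 13.94% and 10.98%. With IL4 4 rose without untreated replicate 4 and 4 fell without IL4 replicate 2, and with TGFb 5 rose without TGFb replicate 2. The shares of all genes in these last cases are not given here. Among 12 genes of the SMN complex and its partners, which load Sm rings on small nuclear RNAs, 9 (75%, against 23.4% of all genes) fell and none rose with TGFb, with a median log2 fold change of -0.40. They were led by Gemin5 (-0.58, SE 0.04, adjusted p = 1.56e-09) and Wdr77 (-0.57). With LPS+IFNg 4 of the 12 rose (33.3%, against 29.5% of all genes), led by Gemin8 (1.20) and Gemin2 (0.68), and 3 fell (25%, against 29.4%), led by Wdr77 (-0.81) and Gemin4 (-0.45).

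Kinases and the importin that act on SR proteins numbered 8, of which 3 rose (37.5%, against 29.5% of all genes) and 2 fell (25%, against 29.4%) with LPS+IFNg. Clk4 (log2 fold change 1.06, SE 0.12, adjusted p = 4.61e-07) and Clk3 (0.67) rose, and Srpk3 (-3.47, adjusted p = 3.62e-10) and Srpk1 (-0.43) fell. Srpk3 had 5.17 ± 3.20 with LPS+IFNg, against 61.6 ± 7.87 in untreated libraries (mean and SD), so the size of its fall rests on values near the floor. Srpk1 rose with IL4 (0.35, adjusted p = 0.000142) and fell with TGFb (-0.29, adjusted p = 0.000212). Of 20 SR-related genes, 3 rose (15%) and 4 fell (20%) with LPS+IFNg, both below the shares of all genes. They were led by Rsrc2 (0.45) and Luc7l (0.38) upward and Tra2b (-0.49) and Son (-0.31, and -0.13 without LPS+IFNg replicate 3) downward. Tested hnRNP relatives with other names numbered 9, of which 2 rose (22.2%) and 5 fell (55.6%) with LPS+IFNg, the falls including Syncrip (-0.46), and 6 fell with TGFb (66.7%, against 23.4% of all genes), among them Rbmx (-0.69). Their 2 rises with LPS+IFNg numbered 1 without LPS+IFNg replicate 1 or 2 or untreated replicate 1, 3 or 4. All 3 calls among 5 minor spliceosome genes with LPS+IFNg were rises (60%, against 29.5% of all genes), with Scnm1 at 0.54.

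Cell cycle genes also changed with the stimuli. Of 25 such genes, 8 rose (32%, against 29.5% of all genes) and 10 fell (40%, against 29.4%) with LPS+IFNg, 23 fell with IL4 (92%, against 7.33%) and 23 fell with TGFb (92%, against 23.4%). Their summed count was 32209 to 34759 with LPS+IFNg, 26835 to 28013 with IL4 and 24031 to 24682 with TGFb, against 33633 to 34767 in untreated libraries. The cell cycle sum was thus lowest in the TGFb libraries, in which the Prpf sum was also lowest, and it overlapped untreated in the LPS+IFNg libraries, in which the Srsf sum was lowest. In the IL4 libraries it lay below every untreated library. There the Srsf sum was 95.5% to 100.3% of the untreated mean and the Prpf sum 93.1% to 96.3%. The part of the cell cycle in the results was not tested.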

How the data were processed

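RNA sequencing was done on 15 libraries, from total RNA and an Illumina TruSeq RNA kit per the labels' protocols. Per the submitters' processing notes, TopHat2 2.0.3, Partek 6.6, R 3.0.2, DESeq2 and the build mm10 were used. The annotation, the counting rule and the use of strand are not given in the sources used here. The deposited values are a normalized signal for each gene. They look like counts that the authors scaled by a single factor for each library, with 1 as the floor, since 100% of the values above the floor in each library were whole multiples of a single step (within 0.01 reads, and in proportion for high counts). All 15 value columns were used, and 0 were left out. Those reads gave the depths of 2682564 to 18676181.

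Groups came from the stimulation in the labels. Because the values are normalized, limma 3.58.1 in R 4.3.3 was fitted once to log2(value + 1) of the 15 libraries, with a mean-variance trend and 6 contrasts. A gene was tested if 3 or more libraries reached 10 (11138 genes). Its call needed a Benjamini-Hochberg adjusted p under 0.05 among all genes tested. The fit was tested on simulated data. Fold changes on this scale understate those of low genes. Members and lists were chosen with earlier results of these data known. The naming rule took up to 3 highest and 3 lowest called members per class and stimulus with a mean of at least 50, the 2 highest per kb in each class, and up to 2 genes per list and direction; other members are named to complete a class. Positions came from GENCODE M21 and promoters from RefSeq (GRCm38.p6). Genes with no promoter entry included Hnrnpll, Sf3b4, Snrpb, Sf3b5, Hnrnpul2, Snrpd1 and Prpf18. The values of 1 member and 1 listed gene are not reported here, and both stay in the counts and sums. Alternatives were other scalings, filters, pseudocounts and sets of libraries. Library weights were added after seeing the data.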

Additional observations from a re-analysis of the deposited data

Results flagged for a closer look

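In 3 of 69 sets of 6 untreated values, 1 library lay far from the other 5, where chance gives about 1 in 20 sets. Sf3a3 had 616.8 in untreated replicate 1, against 527.9 to 549.7 in the other untreated libraries. Sf3b3 had 3088 in untreated replicate 4, against 2727 to 2838. Sf3b6 had 493.1 in untreated replicate 4, against 399.5 to 427.2. Untreated replicate 4 had the fewest reads, 2682564. Sf3a3 and Sf3b3 kept their calls with TGFb whichever single library was left out. Without the 3 libraries with the fewest reads, which include untreated replicate 1, Sf3a3 lost its call with TGFb (log2 fold change -0.255, limma adjusted p = 0.0544).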

How the results depend on the processing

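The Srsf genes lowered by LPS+IFNg numbered 8 to 9 of 10 in all 24 settings, with 0 raised. Scaling moved other counts. With libraries rescaled to the same total, which put the median of all genes at -0.12 with LPS+IFNg, 5 members rose with LPS+IFNg (6 after quantile normalization) and the median was -0.22 (-0.19). Of all genes, 2427 of 11136 rose after rescaling and 2652 of 11138 after quantile normalization, against 3284 of 11138 in the main fit. The distance of the members' median from that of all genes was -0.10 before and after rescaling. With IL4, 18 members fell after rescaling and 15 after quantile normalization. Of all genes, 1448 of 11136 and 1031 of 11138 fell there, against 816 of 11138 in the main fit. The members that fell with IL4 numbered 16 with only the groups compared, 3 without the 3 shallowest libraries and 14 with library weights. Rises with IL4 numbered 4 with only the groups compared and 2 with weights. The median with IL4 was -0.15 after rescaling and -0.13 after quantile normalization. With TGFb, 1 rose after rescaling and without the shallowest libraries, 6 with only the groups compared and 5 with weights, and the median after rescaling was -0.22. Of all genes, 2029 of 11136 rose with TGFb after rescaling, against 2686 of 11138 in the main fit. The LPS+IFNg median with weights was -0.041. Between LPS+IFNg and IL4 the median after rescaling was -0.13, and 14 were lower with only the groups compared. Between LPS+IFNg and TGFb, quantile normalization gave 21 lower and a median of -0.032, and weights gave 28 higher. Of all genes, 3909 of 11138 were lower after quantile normalization, against 3425 in the main fit. Between IL4 and TGFb, 1 was lower after rescaling, 4 after quantile normalization, with only the groups compared and with weights, and 0 without the shallowest libraries. Of all genes, 2006 of 11136 were lower after rescaling and 2029 of 11138 after quantile normalization, against 2118 in the main fit. The median after quantile normalization was 0.046, and 27 were higher with weights. Shares of all genes under the other settings are not given here. The cause was not tested.

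Leaving out 1 library in turn gave 9 to 13 higher, 25 to 28 lower and a median of -0.117 to -0.040 with LPS+IFNg; 1 to 4, 2 to 17 and -0.097 to -0.078 with IL4; and 0 to 5, 24 to 31 and -0.164 to -0.140 with TGFb. Between LPS+IFNg and IL4 it gave 14 to 18 higher, 19 to 23 lower and a median of -0.083 to 0.0043, between LPS+IFNg and TGFb 16 to 24, 10 to 16 and 0.019 to 0.075, and between IL4 and TGFb 10 to 26, 1 to 3 and 0.072 to 0.118. Shares of all genes over these ranges are not given here. Of 46 named results, 33 kept their call under every setting and 13 lost it under at least 1. Sf3b2 with LPS+IFNg turned to -0.013 after rescaling and -0.036 after quantile normalization. No paired analysis was possible because the labels give no replicate numbers. Count tests (edgeR, DESeq2) were not run, since values set to 1 do not give whole reads back. Genes near 80 counts, such as Hnrnph3, are limited by depth.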
